A study of Ovis aries with 6 samples.

Results

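The S100A genes encode small calcium-binding proteins, and their transcripts were measured in the skin of 2 sheep breeds that differ strongly in their wool. The members were taken by name, as every gene of the deposited tables whose symbol is S100A followed by a number, which gave 10 of the 28394 genes listed. Total RNA of skin cut behind the shoulder blade was sequenced as 1 polyA library per ewe, from 3 Super Merino (SM) and 3 Small Tail Han (STH) sheep, a fine wool and a coarse wool breed kept on the same farm with the same feed. No treatment is named for either group, and the labels give an age of 9 months for all 6 ewes, whereas the methods of the study give a younger age. Samples were taken in autumn, when wool follicles are thought to be growing. The SM ewes are labelled 128, 30034 and 30126, the STH ewes XW3, XW5, XW8, and values of single ewes are given in this order. Each sample is whole skin, so that epidermis, follicles, glands, dermis and vessels were read together, and fewer cells of a type cannot be told apart from less RNA per cell.

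S100 proteins carry a pair of EF-hands, the helix-loop-helix motif that holds a calcium ion, and they mostly work as dimers that bind a partner once calcium is bound. Most S100A genes lie together in the epidermal differentiation complex, beside the genes for involucrin, filaggrin and the small proline-rich proteins from which the cornified envelope is built. In skin the family is best known from keratinocytes, from the cuticle of the hair and from inflamed epidermis, where the secreted S100A8 and S100A9 act as danger signals.

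All 10 members lie on chromosome 1 of Oar_v4.0. S100A10 (100734630 to 100746661) and S100A11 (100775673 to 100780470) together span 45.8 kb from end to end. The other 8 follow 1402 kb away, from S100A9 at 102182799 to S100A1 at 102525660, a stretch of 343 kb. S100A8 lies from 102217575 to 102218676. S100A5, S100A4, S100A3, S100A2 and S100A16 follow each other on the minus strand from 102455373 to 102515297. Only S100A9 overlapped another listed gene, LOC106990857 on the opposite strand, which had 0 counts in every sheep. A RefSeq table of a later assembly (ARS-UI_Ramb_v3.0) holds 14 S100A symbols. The identifiers of 10 of them matched the files, each under the same symbol, and S100A6, S100A7A, S100A13 and S100A14 were not analysed here.

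All 10 genes had counts in every sheep, but their levels differed widely per unit of exon length. The level used for this is the deposited RPKM, which scales reads to exon length and to the counted fragments. S100A11, a keratinocyte protein that pairs with annexin A1, stood highest, at 553 ± 64.0 RPKM (SD, n = 6), the 134th highest mean of the 28394 genes. S100A2, known from basal keratinocytes, followed with 288 ± 71.9 (SD, n = 6), and S100A10, the partner of annexin A2, with 217 ± 38.6 (SD, n = 6). S100A3, a cysteine-rich protein of the hair cuticle, stood at 193 ± 75.0 RPKM (SD, n = 6), S100A4, which binds non-muscle myosin, at 184 ± 55.5 (SD, n = 6), and S100A16, a broadly expressed member, at 106 ± 21.1 (SD, n = 6). S100A1, best known from heart and muscle, came far lower, with 19.9 ± 9.05 RPKM (SD, n = 6). S100A8 and S100A9 had only 5.06 ± 1.85 and 4.40 ± 1.40 RPKM (SD, n = 6), and S100A5, known from olfactory neurons, 1.34 ± 0.36 (SD, n = 6).

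The order of these levels was firm only in part. S100A11 stood above S100A2 in 6 of 6 sheep, and S100A4 above S100A16, S100A16 above S100A1, S100A1 above S100A8 and S100A9 above S100A5 in 6 of 6 as well, without overlap of their RPKM ranges. S100A2 lay above S100A10 in 5 sheep, the exception being STH sheep XW8. S100A10 lay above S100A3 in 4 sheep, the exceptions being SM sheep 30034 and 30126, and S100A3 above S100A4 in 4, the exceptions being XW5 and XW8. S100A8 lay above S100A9 in 4 of 6 sheep. In these 4 neighbouring pairs the ranges overlapped, so their order does not exceed the spread between sheep. Summed over the 10 genes, the RPKM was 1311, 1671 and 2019 among the SM ewes and 1559, 1336 and 1539 among the STH ewes. S100A11 made up between 31.8% and 37.9% of this sum. As a share of all RPKM of the same ewe, the sum was 0.348%, 0.390% and 0.405% in SM ewes. In STH ewes this share was 0.375%, 0.351% and 0.406%, so that XW8 stood level with 30126.

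**Figure D1:**
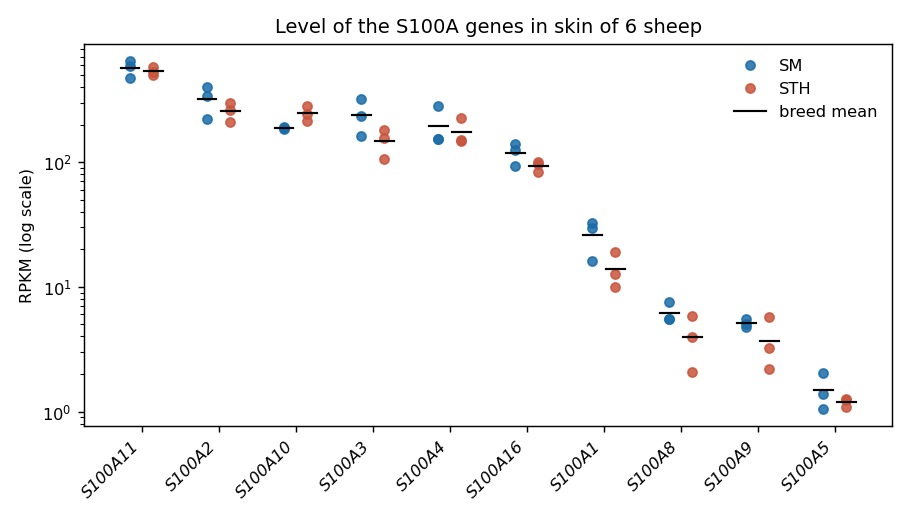
Level of each S100A gene in RPKM on a log axis, with the genes in order of their mean. Each point is 1 sheep, blue for SM and red for STH, and the black bars are breed means; S100A11 lies at the top, between 472 and 642 RPKM, and S100A5 at the bottom, between 1.05 and 2.05.

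The study asked which genes differ in skin between a fine and a coarse wool breed. No S100A gene differed by the thresholds of the study, an adjusted p under 0.05 and a change of over 1.5-fold, in edgeR's quasi-likelihood test, which also called 0 of all 15320 genes tested (0.00%). The study itself did call genes in both directions from these libraries, with its own run of edgeR and the same thresholds. It reported no breed difference for the S100A family. All 10 members had enough counts for the quasi-likelihood test. Fold changes set SM over STH, and those above 0 are higher in SM sheep. The smallest adjusted p among them was 0.247 (S100A10), and the largest 0.903 (S100A11). DESeq2 and edgeR's likelihood ratio test, which called 2.87% and 2.30% of all genes, also called 0 of the 10, and limma-voom called 0 of them and 0.00% of all genes. At an unadjusted p under 0.05 there were 3 members, S100A1 and S100A3 higher in SM sheep and S100A10 higher in STH sheep, beside 18.0% of all genes. Among all genes 7.21% passed this level with the higher value in SM sheep and 10.8% with the higher value in STH sheep (1104 and 1658 genes), a balance that turned to 1437 and 1402 with upper quartile normalization and to 1590 and 1428 with the length trend removed.

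Of the 10 members, 9 had a log2 fold change above 0, whereas 51.4% of all genes tested did. Only 6 of 10 did so with the exonic share of each library as a covariate (49.3% of all genes) and 7 with the trend on exon length removed (57.0% of all genes). The median over the members was 0.28, beside 0.018 over all genes tested, and it was 0.074 with the exonic share as a covariate. For 1 gene, S100A10, every STH ewe exceeded every SM ewe, which held for 13.3% of all genes. For 0 of the 10 did all SM sheep lie above all STH sheep, which held for 12.3% of all genes.

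**Figure D2:**
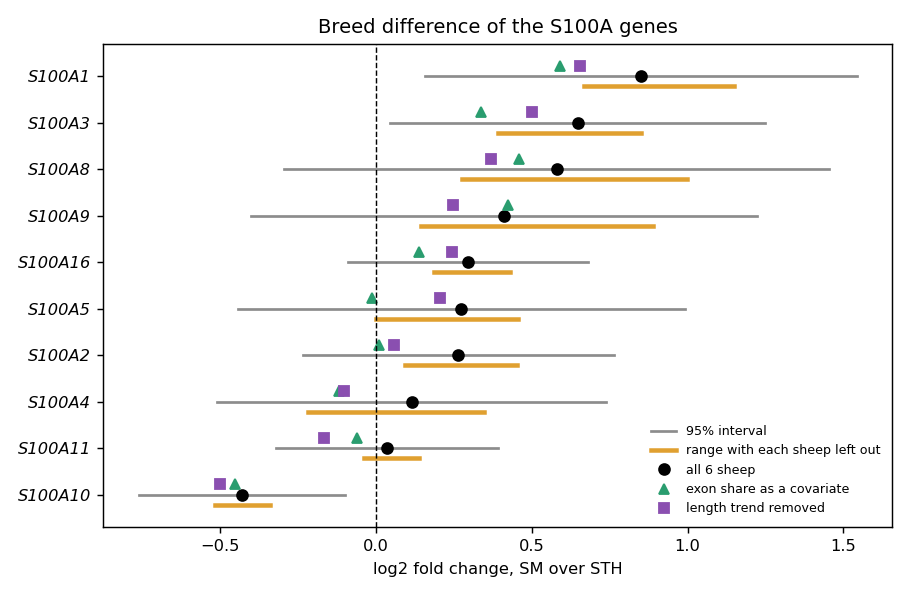
Log2 fold change (SM over STH) of each S100A gene. Black points are the values over all 6 sheep with their 95% intervals in grey, orange bars the range as each sheep is left out, green triangles the values with the exonic share as a covariate and purple squares those with the length trend removed; S100A10 lies below 0 at -0.43, and S100A11, S100A4 and S100A5 change sign in at least 1 of these settings.

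S100A10 and S100A11 are the members that work with annexins at membranes, S100A10 in a complex with annexin A2 that does not need calcium. In CPM, counts scaled to library size and TMM-normalized, S100A10 stood at 369.6, 361 and 369.7 among the SM ewes and 553, 433 and 495 among the STH ewes. The SM sheep were almost alike, with a coefficient of variation of 1.29% against 12.1% in STH sheep, and every STH sheep lay higher (two-sided p = 0.1 by exact permutation, as low as 3 against 3 can go). The log2 fold change was -0.43 (standard error, SE, 0.15, 95% interval -0.76 to -0.098, unadjusted p = 0.0169, adjusted p = 0.247 in that edgeR test), or 1.35-fold higher in STH sheep. With single ewes left out it ranged from -0.52 to -0.34, and it was -0.45 with the exonic share as a covariate and -0.50 with the length trend removed. Markers of several cell types moved in the same direction and those of others in the opposite one, and their part in this difference was not tested. Of the 7 suprabasal keratinocyte markers listed, 6 were found, all 6 had negative log2 fold changes, 5 at an unadjusted p under 0.05, and their summed level was 3081 to 3761 CPM in SM and 4571 to 8455 in STH sheep. The 3 smooth muscle markers (ACTA2, MYH11 and DES) summed to 713 to 818 CPM in SM and 1268 to 1632 in STH sheep. Several markers of these 2 lists were named by the study from these same libraries, so their direction is no independent evidence. In contrast, all 5 sebaceous gland, all 4 endothelial and all 4 T cell markers had log2 fold changes above 0. Several of the sebaceous gland markers were likewise named by the study from these libraries.

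S100A11 had 372, 447 and 488 CPM among the SM ewes and 407, 402 and 466 among the STH ewes. The breeds overlapped fully, SM sheep 128 being the lowest and 30126 the highest of all 6. Its log2 fold change was 0.036 (SE 0.16, 95% interval -0.32 to 0.39, adjusted p = 0.903). The sign turned to -0.061 with the exonic share as a covariate and to -0.17 with the length trend removed.

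S100A3 is made in the cuticle of the hair shaft, where it is among the proteins with most cysteine. It had 215, 296 and 413 CPM among the SM ewes and 235, 144 and 211 among the STH ewes. SM sheep 30126 stood highest and STH sheep XW5 lowest, and the breeds overlapped because 128 lay below XW3. The log2 fold change was 0.65 (SE 0.26, 95% interval 0.045 to 1.25, unadjusted p = 0.0379, adjusted p = 0.265), or 1.57-fold, and the exact permutation p was 0.2. It ranged from 0.39 to 0.85 as each sheep was left out, and was 0.34 with the exonic share as a covariate. Of the 11 wool follicle and shaft markers listed, 8 were found, with a summed level of 11777 to 16729 CPM in SM and 13800.5 to 18203 in STH sheep. Among them 5 were higher and 3 lower in SM sheep. KRT36, a keratin of the fibre, had 98.8, 87.5 and 144 CPM among the SM ewes and 61.7, 44.4 and 84.2 among the STH ewes. The list did not follow S100A3 as a whole. KRT36, KRT35 and the follicle factor FOXN1 were highest in 30126 and lowest in XW5, as S100A3 was, whereas LEF1 and MSX2 were highest in 30126 but lowest in XW8. The inner root sheath keratins KRT71, KRT25 and KRT27 were lowest in 128 and highest in XW8, and for KRT27 (log2 fold change -0.52, SE 0.17, adjusted p = 0.247) every STH ewe exceeded every SM ewe. The part of these markers in the difference of S100A3 was not tested.

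S100A1, which in muscle binds the ryanodine receptor, had the largest fold change of the family. It had 15.5, 27.4 and 30.04 CPM among the SM ewes and 12.1, 9.90 and 18.6 among the STH ewes, from 372 to 1236 counts. The breeds overlapped in a single place, SM sheep 128 lying below STH sheep XW8. The log2 fold change was 0.85 (SE 0.30, 95% interval 0.16 to 1.54, unadjusted p = 0.0218, adjusted p = 0.254), or 1.80-fold, and the exact permutation p was 0.2. As each sheep was left out it ranged from 0.67 to 1.15. Without SM sheep 128 it was 1.09 with an adjusted p of 0.0380, so that S100A1 then passed both thresholds. Leaving out that sheep raised the share of all genes called from 0.00% to 7.73%. With any other single sheep left out, the adjusted p of S100A1 by edgeR lay between 0.344 and 0.627. The unadjusted p was then 0.00695 without XW8, and between 0.0683 and 0.0763 without each of the rest. The log2 fold change of S100A1 was 0.59 with the exonic share as a covariate and 0.65 with the length trend removed. Of the skeletal muscle markers, CKM overlapped (log2 fold change -0.071, adjusted p = 0.838) and ACTA1 was lower in SM sheep, with a log2 fold change of -2.18 (SE 0.58, adjusted p = 0.240).

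S100A2 had 184, 266 and 318 CPM among the SM ewes and 243, 222 and 176 among the STH ewes. Its lowest value was in XW8, next to that of 128, and the breeds overlapped. S100A16 had 232, 298 and 335 CPM among the SM ewes and 246, 213 and 246 among the STH ewes. Of the SM ewes only 128 lay inside the STH range, while XW3 and XW8 lay inside the SM range. The log2 fold changes were 0.26 for S100A2 (SE 0.22, adjusted p = 0.496) and 0.30 for S100A16 (SE 0.17, adjusted p = 0.347). As each sheep was left out, that of S100A2 ranged from 0.092 (without 30126) to 0.45 (without 128) and that of S100A16 from 0.19 to 0.43 (without the same ewes), with unadjusted p of 0.0340 and 0.0221 and adjusted p of 0.135 and 0.111 by edgeR without 128. That of S100A2 was 0.0083 with the exonic share as a covariate and 0.059 with the length trend removed. The basal keratinocyte markers, with which S100A2 shares its best known place, summed to 6601 to 7927 CPM in SM and 7763 to 10557 in STH sheep, with 4 of the 5 found higher in STH sheep.

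S100A8 and S100A9 form calprotectin, which neutrophils carry in bulk and keratinocytes make under stress. S100A8 had 4.13, 3.94 and 5.45 CPM among the SM ewes and 2.92, 4.50 and 1.59 among the STH ewes, and S100A9 had 4.93, 5.47 and 5.04 among the SM ewes and 3.27, 6.02 and 2.28 among the STH ewes. STH sheep XW8 was lowest and XW5 highest of its breed in both genes, and the breeds overlapped. The SM sheep were close together for S100A9, with a coefficient of variation of 5.55%, against 50.1% in STH sheep. Counts were low, from 48 to 214 for S100A8 and from 69 to 254 for S100A9, and counting alone gives a relative error of 14.4% at the lowest S100A8 count. The log2 fold changes were 0.58 (SE 0.38, 95% interval -0.30 to 1.46, adjusted p = 0.402) for S100A8 and 0.41 (SE 0.36, 95% interval -0.40 to 1.22, adjusted p = 0.513) for S100A9. Both rested much on single STH sheep, being 0.998 and 0.89 without XW5 but 0.28 and 0.14 without XW8. The RPKM ratio of S100A8 to S100A9 lay between 0.958 (XW8) and 1.49 (30126). Of the 6 neutrophil markers listed, MPO did not exceed 4 counts and ELANE did not exceed 18 in any sheep, and the summed level overlapped between SM (23.2 to 38.6 CPM) and STH sheep (26.1 to 33.6 CPM). CSF3R, the receptor for granulocyte colony-stimulating factor, was the exception among them, with a log2 fold change of 1.82 (SE 0.34, adjusted p = 0.159).

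S100A4, also called fibroblast-specific protein, had 136, 130.3 and 241 CPM among the SM ewes and 131, 135 and 203 among the STH ewes. In each breed 1 sheep, 30126 and XW8, stood well above the others, and the breeds overlapped. The log2 fold change of S100A4 was 0.11 (SE 0.27, 95% interval -0.51 to 0.74, adjusted p = 0.823). It was -0.12 with the exonic share as a covariate, -0.10 with the length trend removed and -0.22 without sheep 30126. Of the fibroblast markers, 5 of 6 were lower in SM sheep, with summed levels of 14609.7 to 20936 CPM in SM and 16993 to 20971 in STH sheep. S100A5 was the rarest member, with 2.48, 3.10 and 4.64 CPM among the SM ewes and 2.89, 2.99 and 2.58 among the STH ewes, from 75 to 182 counts. Its log2 fold change of 0.27 (SE 0.31, adjusted p = 0.620) was 0.0015 without sheep 30126.

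SM sheep 30126 had the highest CPM of the 6 sheep in 8 of the 10 genes, all except S100A9 and S100A10, and was lowest in none. It was also highest in 33.4% of all genes tested and in 50.7% of the 3830 genes with the shortest exon length, a group that holds all 10 members. Without it, 7 of 10 members were higher in SM sheep and the median log2 fold change was 0.14, while without SM sheep 128 the median was 0.45. The mean log2 CPM over the 10 genes was 5.70, 5.97 and 6.27 among the SM ewes and 5.70, 5.69 and 5.62 among the STH ewes. The share of counted fragments that fell in exons, which follows from the deposited counts and RPKM up to a common factor, was also highest in 30126, at 1.18 times that of sheep 128, the lowest. In the other 4 libraries it lay between 1.02 and 1.08 times that of 128. What this share contributed to the family's values was not tested beyond the covariate given above.

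**Figure D3:**
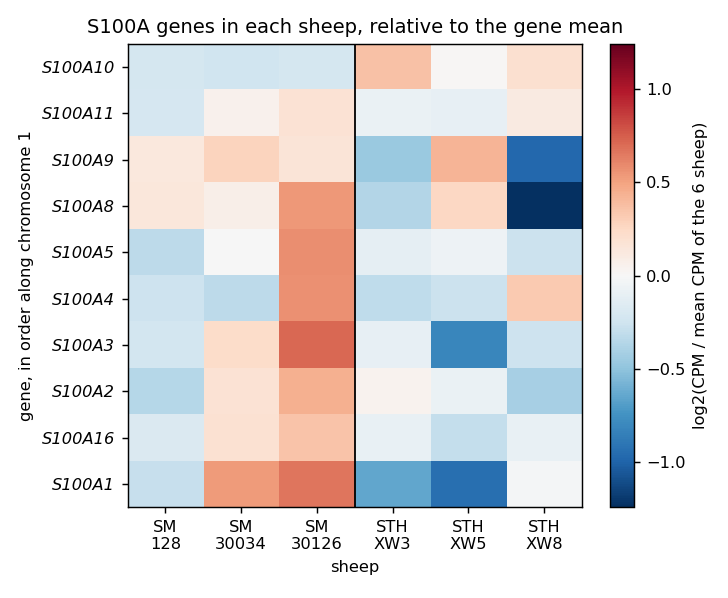
Each S100A gene (rows, in order along chromosome 1) in each sheep (columns, SM left of the line and STH right), as the log2 of its CPM over the mean CPM of the 6 sheep. Red is above and blue below that mean; the column of SM sheep 30126 is the highest of the row in 8 of 10 genes, and S100A10 is the row in which all STH sheep lie above all SM sheep.

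S100A genes are short, and short genes as a whole were higher in SM sheep. All 10 members were among the 3830 shortest of the 15320 genes by exon length, 7 of them below the 10th percentile. Among these 3830 genes the median log2 fold change was 0.19 and 68.2% were above 0. In the next 3 groups of 3830 genes by length the medians were 0.075, -0.041 and -0.18. The median of 0.28 over the S100A genes stands beside this 0.19. What exon length contributed to the family's values was not tested beyond the removal of its trend.

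**Figure D4:**
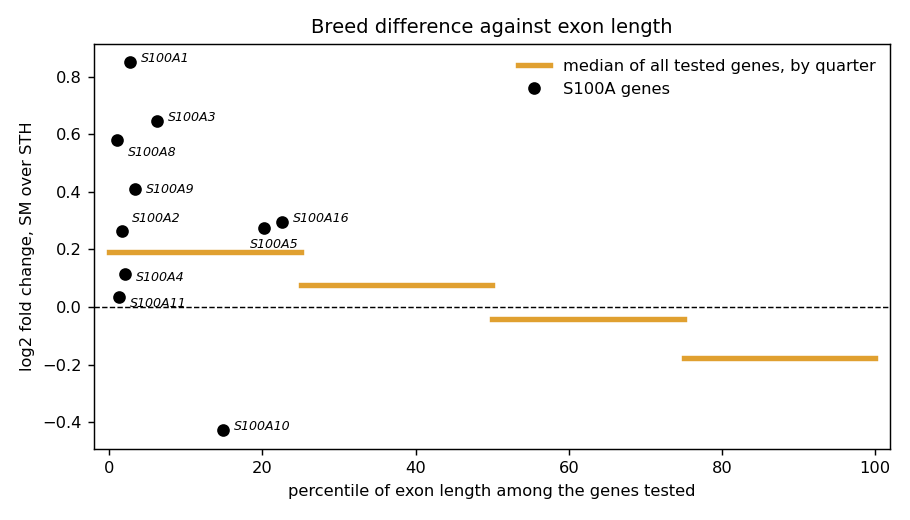
Log2 fold change (SM over STH) of the 10 S100A genes (black points) against the percentile of their exon length among the 15320 genes tested, with the median of all genes in 4 equal groups by exon length in orange. All members lie in the shortest group, whose median is 0.19, and S100A10 is the member below 0.

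Over the 6 sheep, the members varied together in part. How far other genes, or other short genes, vary together was not computed, so this is not shown to be particular to the family. Of 45 pairs, 32 had a positive Pearson r of log2 CPM, with a median of 0.50, and by exact permutation 5 had an unadjusted p under 0.05 and 0 an adjusted p under 0.05 (Benjamini-Hochberg over the 45 pairs). With 6 sheep, the exact permutation p cannot go low enough for a single pair to pass this adjustment by itself. The highest r was that of S100A3 and S100A16, 0.97 (exact permutation p = 0.00417, adjusted p = 0.156), and Spearman's rho was 0.94 (exact permutation p = 0.0167, adjusted p = 0.578). It was 0.95 without the 2 sheep farthest from the median of S100A3 and 0.95 within the breeds, taken from each ewe's deviation from her breed. S100A1 and S100A16 had an r of 0.92 (exact permutation p = 0.0139, adjusted p = 0.175) and a rho of 0.83 (exact permutation p = 0.0583, adjusted p = 0.578), with an r of 0.81 without the 2 outermost sheep and 0.87 within breeds. For S100A8 and S100A9, the subunits of calprotectin, r was 0.93 (exact permutation p = 0.0194, adjusted p = 0.175) and rho 0.71 (exact permutation p = 0.136, adjusted p = 0.681), but r was -0.18 without the 2 sheep farthest from the median of S100A8, so that this relation rests on those sheep. Within breeds, with all 6 sheep kept, it was 0.90 (exact permutation p = 0.278, adjusted p = 0.648). The lowest r were those of S100A10 with S100A9 (-0.73), S100A8 (-0.69) and S100A1 (-0.59), with exact permutation p of 0.0833, 0.108 and 0.24, adjusted p of 0.383, 0.383 and 0.503, and rho of -0.54, -0.43 and -0.49 (exact permutation p = 0.297, 0.419 and 0.356, adjusted p = 0.762, 0.786 and 0.762). All 3 changed sign in 1 of these checks, with r of 0.80, 0.11 and -0.66 without the 2 outermost sheep and of -0.67, -0.42 and 0.21 within breeds.

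**Figure D5:**
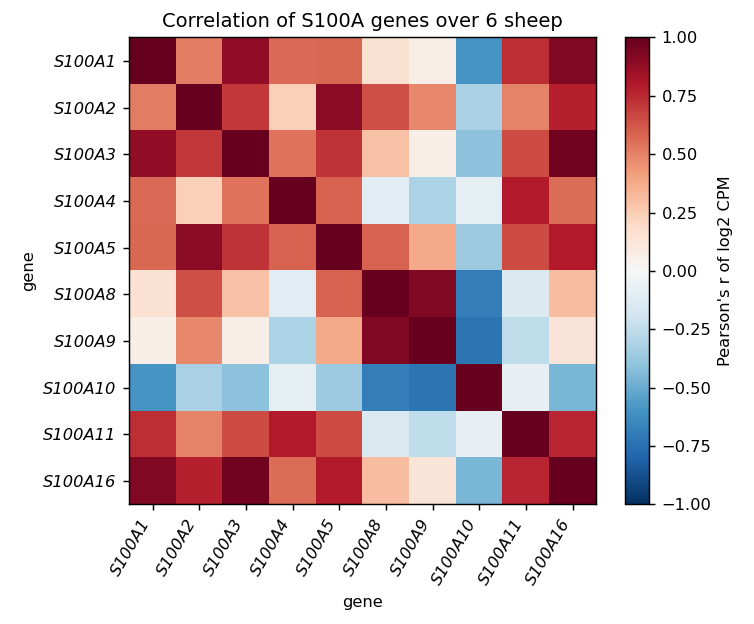
Pearson's r of log2 CPM over the 6 sheep for each pair of S100A genes, from blue (-1) to red (1). S100A3, S100A16 and S100A1 have r from 0.88 to 0.97 with each other, and the row of S100A10 is the bluest, down to -0.73 with S100A9.

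Of the proteins that S100A proteins bind inside the cell, 15 were listed and 14 tested. By edgeR's quasi-likelihood test 0 of the 14 passed the thresholds and 4 were at an unadjusted p under 0.05, all 4 higher in STH sheep. Over all 14, the median log2 fold change was -0.13. CACYBP, a calcium-dependent partner of several S100 proteins, had 31.4, 31.8 and 32.5 CPM among the SM ewes and 47.6, 54.3 and 42.0 among the STH ewes, a log2 fold change of -0.59 (SE 0.15, adjusted p = 0.232). CAPZA2, an actin capping subunit, had -0.49 (SE 0.19, adjusted p = 0.256) and ANXA1, the partner of S100A11, -0.49 (SE 0.19, adjusted p = 0.260). Every STH ewe lay above every SM ewe for 7 of the 14, beside 13.3% of all genes, and the 3 just named, chosen for their small p, are among the 7. ANXA2, the partner of S100A10, overlapped between the breeds, with 1333, 1508 and 1638 CPM among the SM ewes and 1494, 1733 and 1682 among the STH ewes, a log2 fold change of -0.13 (SE 0.15, adjusted p = 0.622). AHNAK, a large scaffold protein held by that complex, had a log2 fold change of -0.13 (SE 0.14, adjusted p = 0.615). SYT1 was too rare to be tested.

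The annexins, which bind membranes in the presence of calcium, were 11 in the files and 10 tested, 2 higher in SM sheep and 8 in STH sheep (median log2 fold change -0.11), with 0 past the thresholds and 2 at an unadjusted p under 0.05. Besides ANXA1 these were ANXA6, at 0.37 (SE 0.15, adjusted p = 0.261), and next came ANXA11 at 0.23 (SE 0.14, adjusted p = 0.377). ANXA10 had 0 counts in every sheep. The receptors and surface partners of secreted S100A proteins had 6 of 7 listed found and tested, 3 in each direction (median log2 fold change -0.22), and 0 at an unadjusted p under 0.05. AGER, the receptor for advanced glycation end products, had 1.45, 0.753 and 0.637 CPM among the SM ewes and 1.36, 1.68 and 2.12 among the STH ewes, a log2 fold change of -0.87 (SE 0.45, adjusted p = 0.316). ALCAM had -0.48 (SE 0.28, adjusted p = 0.357) and BSG, which binds S100A9, 0.30 (SE 0.21, adjusted p = 0.436). Toll-like receptor 4 (TLR4), another receptor of calprotectin, lay between 16.8 and 22.8 CPM in all 6 sheep.

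S100 genes outside the S100A series were low, and neither of the 2 tested, S100B of glial and pigment cells (log2 fold change -0.73, SE 0.42, adjusted p = 0.354) and S100Z (-0.68, SE 0.55, adjusted p = 0.488), passed the thresholds or had an unadjusted p under 0.05. S100G stayed below the count filter, at 19 counts or fewer. The S100 fused-type genes, in which an S100 domain is joined to long repeats, went the other way from most S100A genes of the same complex. All 5 found (RPTN, TCHHL1, LOC105613042, LOC101120378 and LOC105614079) were lower in SM sheep, each at an unadjusted p under 0.05 and 0 of them past the thresholds, with a median log2 fold change of -1.72. They were named by the study from these same libraries, so their direction is no independent evidence. Their summed level was 261 to 594 CPM in SM and 1023 to 1932 in STH sheep, and the 3 with the smallest p were RPTN, at -3.41 (SE 0.33, adjusted p = 0.0606), LOC105613042, at -2.24 (SE 0.42, adjusted p = 0.159), and TCHHL1, at -1.72 (SE 0.38, adjusted p = 0.200).

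Among other genes of the epidermal complex near the S100A genes, 5 of 6 found were tested, 3 higher in SM sheep and 2 in STH sheep, and IVL, the envelope protein involucrin, was the 1 at an unadjusted p under 0.05, with a log2 fold change of -1.05 (SE 0.20, adjusted p = 0.159). Next to it came PGLYRP4, at -0.67 (SE 0.32, adjusted p = 0.298), and THEM5, at 0.18 (SE 0.28, adjusted p = 0.724). For calcium sensors with EF-hands outside the S100 family, 18 were found and 15 tested, 9 higher in SM sheep and 6 in STH sheep (median log2 fold change 0.046), 0 past the thresholds and 2 at an unadjusted p under 0.05. CETN3, a centrosome protein, had -0.69 (SE 0.21, adjusted p = 0.247), RCN1 of the endoplasmic reticulum -0.40 (SE 0.15, adjusted p = 0.256) and the calpain CAPN1 0.37 (SE 0.16, adjusted p = 0.282). PVALB had 0 counts in every sheep. For all these lists the values over all genes tested were the median of 0.018 and the 18.0% given above. Genes of like exon length were not set beside these lists. The median over all genes ran from 0.19 in the shortest group to -0.18 in the longest.

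The samples carried the markers of skin. Total counts were 28870583 to 44645091 per library, at which 3 counts correspond to between 0.0672 and 0.104 CPM before TMM normalization, counting error only. Markers of keratinocytes, follicle, sebaceous gland, fibroblasts and endothelium were present in every sheep, and none of those found was at 0. Of the sebaceous gland markers, all 5 were higher in SM sheep (934 to 1336 against 438 to 761 CPM in sum). Summed endothelial markers were 494 to 633 against 312 to 516 CPM, and T cell markers 25.2 to 38.0 against 17.7 to 26.5. Of the 3 adipocyte markers only FABP4 separated the breeds (27.8 to 62.6 against 128 to 169 CPM), while ADIPOQ and PLIN1 overlapped, PLIN1 with a log2 fold change above 0. The leukocyte marker PTPRC lay between 28.6 and 56.9 CPM.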

How the data were processed

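Skin libraries of 6 ewes, 3 per breed by the strain label, were analysed. Reads had been aligned to the Oar_v4.0 assembly in CLC Genomics Workbench (its advanced plugin for RNA-seq), and the authors deposited, for each gene and sheep, a total count without normalization, whose read classes are not given in the sources used here. The deposited RPKM of the authors follow these counts, the exon length and the counted fragments. The TPM values and a score named CPM, also deposited by the authors, were not used.

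Genes for which 3 or more sheep had at least 10 counts were tested with edgeR 4.0.16 in R 4.3.3 (TMM, quasi-likelihood test, breed as the only term, Benjamini-Hochberg adjustment over all genes). CPM here are TMM-normalized, and standard errors are the log2 fold change over the square root of F. Single values were compared by exact permutation over sheep. Correlations used log2 CPM with a prior count of 2.

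Members and gene lists were chosen with earlier results of these data known. All members are named, and of each other list the genes past the thresholds or else the 3 with the smallest p. ANXA2, AHNAK, TLR4, CSF3R, CKM, ACTA1, the single genes of the follicle, smooth muscle and adipocyte lists, PTPRC, MPO, ELANE, SYT1 and S100G were named after their values were seen. CSF3R, FABP4, KRT36, ACTA1 and IVL were also called by the study from these same libraries, so their direction is no independent evidence. Alternatives were DESeq2 1.42.0, the likelihood ratio test, limma-voom (limma 3.58.1), 2 other filters (none, and 1 CPM in 3 sheep), RLE and upper quartile normalization, the exonic share as a covariate, removal of each library's loess trend on exon length (span 0.5), limma on log2(RPKM + 0.1), and each sheep left out. The tests were tried on simulated counts. How reads shared between similar genes were counted is not given in the sources used here. Whether the 3 sheep of a breed share parents is not stated.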

Additional observations from a re-analysis of the deposited data

How the results depend on the processing

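No paired analysis was possible because the sheep labels name individual animals and share no number between breeds. Over 16 alternatives the count of S100A genes past the thresholds stayed at 0 except that it ranged from 0 to 1 as each sheep was left out (S100A1 without SM sheep 128). Of all genes, DESeq2 called 439, the likelihood ratio test 352 and the quasi-likelihood test without SM sheep 128 called 1175. No other alternative called more than 11 of all genes, so a 0 there says little about the members. The count of members at an unadjusted p under 0.05 was 1 with the exonic share as a covariate and ranged from 0 to 5 as each sheep was left out, while the median log2 fold change, 0.074 with that covariate, ranged from 0.14 to 0.45. Of the 160 single-gene values, 8 had the opposite sign. These were S100A11 (-0.061), S100A4 (-0.12) and S100A5 (-0.012) with the exonic share as a covariate, S100A11 (-0.17) and S100A4 (-0.10) with the length trend removed, and values within the ranges of S100A11 (-0.040 to 0.14) and S100A4 (-0.22 to 0.35) as each sheep was left out. The other 7 genes kept their sign in all 16 alternatives. The correlation count, 0 of 45 pairs, was also 0 with RLE normalization and within breeds. These counts say little, because no single pair could pass the adjustment over 45 pairs by itself. Within breeds the exact permutation p cannot go below 0.0278, and most pairs would have to reach it. The order of the genes by level was the same from TMM-scaled counts per length. The cause of these changes was not tested. With 3 sheep a breed, the 95% intervals span changes of 1.5-fold or more for 9 of the 10 genes, and S100A5, S100A8 and S100A9 also carry counting error.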

Other observations

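Within the stretch from S100A9 to S100A1 the files list 6 more genes without a descriptive symbol, of which 3 had 0 counts in every sheep. LOC101103771, between S100A9 and S100A8, had 2.74, 4.16 and 3.59 CPM among the SM ewes and 3.24, 4.03 and 2.05 among the STH ewes. LOC105605551, on the other side of S100A8, had 1.98, 6.15 and 5.43 CPM among the SM ewes and 3.96, 6.56 and 5.76 among the STH ewes, with the lowest value in 128. LOC101104285 had between 0.734 and 2.34 CPM. The log2 fold changes (SM over STH) of these 3 were 0.17, -0.26 and -0.25, with adjusted p of 0.783, 0.727 and 0.815 by edgeR.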
